A study of Mus musculus with 4 samples.

Results

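Genes for the main components of the basement membrane of vessels, fibroblasts and nerves were followed through single-cell RNA counts of a mouse salivary gland, the submandibular gland. The set held 10 genes, chosen by symbol: the type IV collagen chains Col4a1 and Col4a2, the laminin chains Lama2, Lama4, Lamb1, Lamb2 and Lamc1, the nidogens Nid1 and Nid2, and Hspg2, which encodes perlecan. All 10 were among the 31053 genes listed in each of the 4 deposited matrices. Female C57BL6/J mice gave every library, and each library held cells from dissociated glands after beads had removed cells carrying EpCAM (epithelium) or Ter119 (erythroid cells), and after dead cells were depleted. In the 2 deligated libraries (mice aged 14 weeks) a metal clip had closed the main ducts for 14 days and had been off for 5 days. The 2 homeostatic libraries came from mice aged 12 weeks that had no surgery, so no operated control stood beside the deligated glands. The protocols name 2 glands and do not say how many animals gave each library, and they name the sublingual gland beside the submandibular gland of the titles. With 2 libraries in each group, p-values between groups rest on the spread between these libraries. Those between classes rest on how class differences vary among the libraries. Either may be partly technical.

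A basement membrane is a thin sheet of matrix that underlies endothelium, wraps mural cells (pericytes and vascular smooth muscle) and encloses Schwann cells, the glia of peripheral nerves. Laminins, each built of an alpha, a beta and a gamma chain, assemble at the cell surface, and the type IV collagen network, built largely of the chains encoded by Col4a1 and Col4a2, lies beside them. Nidogens and perlecan link the networks to each other. The alpha chain sets which receptors a laminin meets: the chain of Lama2 is typical of muscle and nerve, and that of Lama4 of vessels.

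Coordinates are those of GENCODE M21 on GRCm38, to which the deposited gene identifiers were matched. Col4a1 lies at chr8:11198423-11312826 on the minus strand and Col4a2 at chr8:11312805-11449287 on the plus strand, so the starts of these neighbours face away from each other and their annotated first exons share a few bases. Lama2 lies at chr10:26980036-27619758 and Lama4 at chr10:38965515-39110188. Lamb1 is at chr12:31265234-31329644, Lamb2 at chr9:108479736-108490530 and Lamc1 at chr1:153218922-153332786. Nid1 is at chr13:13437551-13512269, Nid2 at chr14:19751265-19811787 and Hspg2 at chr4:137468769-137570630. Total intron length, the gene's span minus its exons, was 4.7 kb for Lamb2, between 54.5 and 132.6 kb for the other members except Lama2, and 623.4 kb for Lama2. No member overlapped another listed gene on its own strand. Genes on the opposite strand overlapped Col4a1, Col4a2, Lama2, Nid1 and Nid2. Whether counting used strand is not given in the sources used here, so it is not known if reads of such pairs were told apart.

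The start of the paired collagen genes is shown because their UMIs moved together more closely than those of any other pair of members. The RefSeq promoter table (GRCm38.p6) held windows for 7 of the 10 members. In the line below, 30 bases of the plus strand at chr8:11312801-11312830 are given, and capitals mark the 22 bases between the start of Col4a2 and that of Col4a1.
Col4a2 start to Col4a1 start: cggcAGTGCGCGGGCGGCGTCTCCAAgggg
The 300-base windows of the genes (from 250 bases before the start to 50 after it) overlapped by 78 bases. The letters GGGCGG, read on both strands, occurred 1 time in the Col4a1 window and 3 times in the Col4a2 window, and 35.7% of all 32851 windows held them. CCAAT occurred 1 time in each window, against 37.4% of all windows. TATAAA was in neither window, and 13.6% of all windows held it.

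Cells were assigned to classes within each group of libraries from marker genes, and the members and related matrix genes were left out of the genes used for clustering. After filtering, 33695 of 39558 barcodes remained, with a median of 5211 to 6035 UMIs (unique molecular identifiers, which count captured RNA molecules) per cell in the deligated libraries and 2831 to 2962 in the homeostatic libraries. Libraries shared at most 54 barcodes, and at most 0.482% of the smaller library of a pair. Endothelial-like cells numbered 5012 in deligated and 7052 in homeostatic libraries, fibroblast-like cells 1083 and 570, mural-like cells 757 and 221, and Schwann-like cells 85 and 79. All 10 endothelial, 11 mural and 11 fibroblast markers were detected in their class in every library, and 10 of the 11 Schwann markers were, with the myelin-associated gene Ncmap at 0. Cells without a name were 4.04% and 7.25% of cells in the deligated libraries, 30.7% and 29.5% in the homeostatic ones, and held at most 5.2% of the UMIs of any member in any library. Levels are given as CPM, a gene's UMIs in every 1000000 UMIs of a class in a library, and a Schwann-like sum rests on as few as 26 cells. In NK-like and T cell-like lymphocytes, which should lack these genes, no member exceeded 27.9 CPM in any library.

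The file headers name Cell Ranger 6.0.1 for the deligated and 7.0.0 for the homeostatic libraries, whereas the submitters' processing notes name 6.0.1 for all. Later releases of that software count reads in introns by default, and the setting used is not given in the sources used here. Across all genes the log2 fold change between groups fell with intron length. Spearman's rho was -0.426 over 13174 genes in endothelial-like, -0.442 over 9736 in mural-like, -0.545 over 11576 in fibroblast-like and -0.498 over 2842 in Schwann-like cells, a description over genes of the same 4 libraries. Software version, age and surgery cannot be told apart as sources of a difference between groups. Comparisons between groups are therefore also given with the trend on intron length removed. Comparisons of classes within a group stay within libraries of the same named version.

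Type IV collagen was carried by every stromal class, and as whole classes most by endothelial-like and fibroblast-like cells. Col4a1 stood at 2526 and 2010 CPM in endothelial-like cells of the deligated libraries and at 1629 and 1558 CPM in those of the homeostatic libraries. Fibroblast-like cells held 2083 and 1620 CPM in deligated and 1299 and 1518 CPM in homeostatic libraries, ranges that overlapped the endothelial-like values in the deligated group and lay just below them in the homeostatic group. Mural-like cells (1071 and 918, then 875 and 661 CPM) and Schwann-like cells (1100 and 960, then 847 and 677 CPM) had lower levels of Col4a1 and overlapped each other. In the fit over all classes, endothelial-like and fibroblast-like cells could not be separated for Col4a1 (edgeR's quasi-likelihood test with Benjamini-Hochberg adjustment, adjusted p = 0.077 deligated and 0.111 homeostatic). Fibroblast-like cells exceeded the next class 2.15-fold in deligated libraries (adjusted p = 9.94e-07) and 1.75-fold in homeostatic libraries (adjusted p = 3.77e-05).

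Col4a2 was highest in endothelial-like cells in both groups. Its levels there were 1584 and 1328 CPM (deligated) and 989 and 973 CPM (homeostatic), against 1035 and 867 CPM and then 602 and 628 CPM in fibroblast-like cells. The endothelial-like excess was 1.51-fold in deligated (adjusted p = 2.8e-06) and 1.70-fold in homeostatic libraries (adjusted p = 9.02e-08), and the libraries did not overlap. The UMIs of Col4a2 per UMI of Col4a1 were 0.61 to 0.66 in endothelial-like and 0.41 to 0.53 in fibroblast-like cells over the 4 libraries, with no overlap. In mural-like cells this ratio spread from 0.45 to 0.71 and in Schwann-like cells from 0.49 to 0.59. A ratio of UMIs between genes is not a ratio of chains, because capture differs between transcripts.

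Lama2, the alpha chain of the laminins of muscle and nerve, was carried mainly by fibroblast-like cells. Fibroblast-like cells held 734 and 714 CPM in deligated and 2121 and 2427 CPM in homeostatic libraries. Schwann-like cells held 113 and 94.2 CPM in deligated and 540 and 564 CPM in homeostatic libraries, and mural-like cells 73.3 and 91.7 CPM and then 174 and 136 CPM. Endothelial-like cells stood between 0.475 and 2.86 CPM, within the 0 to 5.63 CPM of the lymphocytes, so Lama2 was not detected there above background. Fibroblast-like cells exceeded Schwann-like cells 8.7-fold in deligated (adjusted p = 5.03e-12) and 4.54-fold in homeostatic libraries (adjusted p = 3.46e-11). Schwann-like and mural-like cells differed 3.06-fold in homeostatic libraries (adjusted p = 3.14e-06) and did not pass in deligated libraries (1.07-fold, adjusted p = 0.871). Those classes differ in cell number, with 26 and 59 Schwann-like cells in the deligated libraries.

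Lama4, the alpha chain common in vessel walls, was highest among the 4 stromal classes in Schwann-like cells, in all 4 libraries. Its levels there were 300 and 250 CPM (deligated) and 446 and 399 CPM (homeostatic). Fibroblast-like cells followed at 179 and 166 CPM and then 248 and 280 CPM, endothelial-like cells at 151 and 106 CPM and then 162 and 169 CPM, and mural-like cells at 72.4 and 80.4 CPM and then 114 and 109 CPM. The Schwann-like excess over fibroblast-like cells passed in homeostatic libraries (1.46-fold, adjusted p = 0.0339) and not in deligated libraries (1.32-fold, adjusted p = 0.0984). All other neighbours in the order differed in both groups, fibroblast-like from endothelial-like cells by 0.46 (deligated, adjusted p = 0.000269) and 0.59 (homeostatic, adjusted p = 2.11e-05) on the log2 scale.

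The beta chains differed in the class with the highest level, mural-like for Lamb2 and fibroblast-like for Lamb1. Lamb2 was highest in mural-like cells, at 280 and 304 CPM in deligated and 296 and 316 CPM in homeostatic libraries. Every other class was lower, with 109 and 114 CPM and then 101 and 95.9 CPM in endothelial-like and 101 and 116 CPM and then 99.1 and 118 CPM in fibroblast-like cells. The mural-like excess over the next class was 2.49-fold in deligated (adjusted p = 8.52e-13) and 2.97-fold in homeostatic libraries (adjusted p = 4.11e-11). Schwann-like cells carried few Lamb2 molecules: 13 and 10 UMIs in the deligated and 2 and 2 in the homeostatic libraries.

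Lamb1, the other beta chain, was highest in fibroblast-like cells, at 626 and 582 CPM (deligated) and 615 and 693 CPM (homeostatic), and lowest in mural-like cells, at 40.4 and 39.3 CPM and then 51.8 and 32.4 CPM. Schwann-like cells held 227 and 221 CPM in deligated and 314 and 243 CPM in homeostatic libraries. Endothelial-like cells held 199 and 156 CPM and then 103 and 98.4 CPM. Fibroblast-like cells exceeded the Schwann-like cells next below 3.19-fold (deligated, adjusted p = 9.14e-10) and 2.57-fold (homeostatic, adjusted p = 6.53e-07). Endothelial-like cells exceeded mural-like cells 4.63-fold in deligated (adjusted p = 3.33e-15) and 2.42-fold in homeostatic libraries (adjusted p = 4.45e-06), so the order of the 2 vessel classes for Lamb1 was the reverse of that for Lamb2.

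Lamc1, the gamma chain shared by most laminins, was present in all 4 classes and was highest in fibroblast-like cells, at 368 and 409 CPM (deligated) and 397 and 463 CPM (homeostatic). Schwann-like cells followed with 167 and 188 CPM and then 336 and 260 CPM. Mural-like cells (134 and 150, then 132 and 149 CPM) and endothelial-like cells (143 and 125, then 96.8 and 102 CPM) were lowest. The fibroblast-like excess over Schwann-like cells was 2.58-fold (deligated, adjusted p = 1.96e-07) and 1.57-fold (homeostatic, adjusted p = 0.0101). Mural-like cells exceeded endothelial-like cells for Lamc1 1.40-fold in homeostatic libraries (adjusted p = 0.0081) and stood at 1.01-fold in deligated libraries (adjusted p = 0.94).

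Both nidogens, the linkers of laminin and type IV collagen, had their highest mean levels in fibroblast-like cells, followed by Schwann-like cells. Nid1 stood at 1147 and 1159 CPM (deligated) and 942 and 909 CPM (homeostatic) in fibroblast-like cells, at 560 and 482 CPM and then 278 and 364 CPM in Schwann-like cells, and at 203 and 203 CPM and then 161 and 157 CPM in endothelial-like cells. Nid2 stood at 278 and 276 CPM and then 246 and 267 CPM in fibroblast-like cells, close to the 247 and 210 CPM and then 321 and 156 CPM of Schwann-like cells. Mural-like cells held 6.67 to 11.7 CPM of Nid2, against at most 2.07 CPM in the lymphocytes, and 81.0 to 131 CPM of Nid1, against at most 4.66 CPM. For Nid1 the fibroblast-like excess over Schwann-like cells was 2.70-fold (adjusted p = 2.33e-10) in deligated and 3.22-fold (adjusted p = 1.95e-09) in homeostatic libraries. For Nid2 it was 1.47-fold in deligated libraries (adjusted p = 0.0232), and 1.15-fold in homeostatic libraries, where the Schwann-like values lay on both sides (adjusted p = 0.6).

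Hspg2, which encodes the proteoglycan perlecan, was lowest in mural-like cells. Fibroblast-like cells held 777 and 886 CPM (deligated) and 735 and 761 CPM (homeostatic), endothelial-like cells 728 and 731 CPM and then 538 and 519 CPM, and Schwann-like cells 573 and 590 CPM and then 416 and 451 CPM. Mural-like cells held 63.5 to 89.1 CPM, 6.21-fold (deligated, adjusted p = 1.7e-15) and 5.32-fold (homeostatic, adjusted p = 1.12e-10) below the Schwann-like cells next above them. The first place of fibroblast-like over endothelial-like cells passed in homeostatic libraries (1.33-fold, adjusted p = 0.000336) and not in deligated libraries (1.15-fold, adjusted p = 0.0544).

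**Figure D1:**
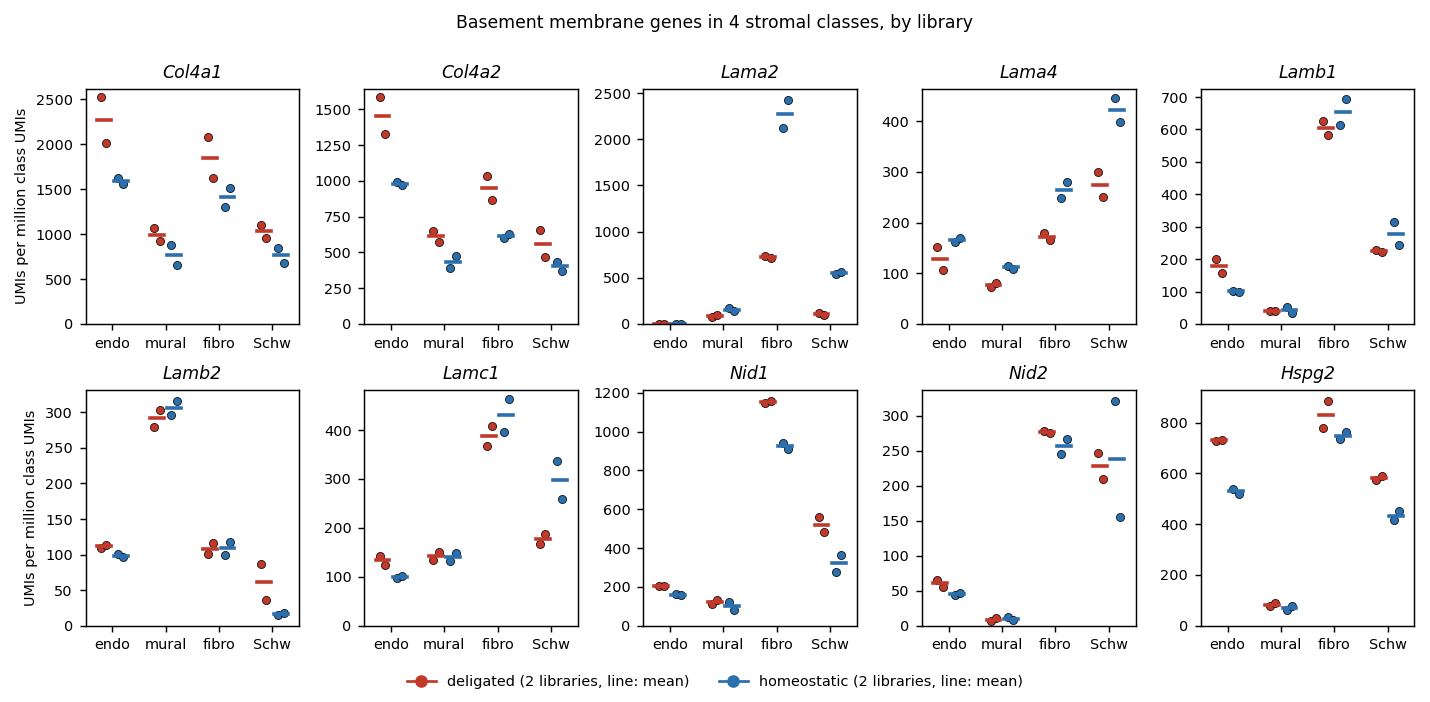
Levels of the 10 genes in endothelial-like, mural-like, fibroblast-like and Schwann-like cells, in CPM of the class, each panel on its own axis from 0; points are libraries, lines the means of 2 libraries, red deligated and blue homeostatic. Lamb2 is highest in mural-like cells, Lama4 in Schwann-like cells, Col4a1 and Col4a2 in endothelial-like cells and the other 6 genes in fibroblast-like cells, in both groups.

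The class with the highest mean was the same in both groups for all 10 members: endothelial-like for Col4a1 and Col4a2, mural-like for Lamb2, Schwann-like for Lama4 and fibroblast-like for the other 6. The highest class differed from the next for 7 members in deligated libraries (Col4a2, Lama2, Lamb1, Lamb2, Lamc1, Nid1 and Nid2) and for 8 in homeostatic libraries (Col4a2, Lama2, Lama4, Lamb1, Lamb2, Lamc1, Nid1 and Hspg2). Differences between classes were common among all 13005 genes of that fit. The share of genes that differed was 63.7% in deligated and 57.4% in homeostatic libraries between endothelial-like and fibroblast-like cells, 57% and 43.1% between endothelial-like and mural-like cells, and 49.4% and 37.2% between mural-like and fibroblast-like cells. Against the smaller Schwann-like class it was 31.9% and 27.1% for endothelial-like, 25% and 20.1% for mural-like, and 24.6% and 18.8% for fibroblast-like cells. The classes were drawn from the expression of the same cells, so these p-values set a difference against the spread of libraries and do not test the classes themselves. Without the second homeostatic library 5 members passed in the homeostatic group.

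Endothelial marker RNA was present in the other classes. The 10 endothelial markers summed to 14614 to 15805 CPM in endothelial-like, 462 to 660 CPM in mural-like, 241 to 350 CPM in fibroblast-like and 139 to 406 CPM in Schwann-like cells. When mural-like, fibroblast-like and Schwann-like cells with 2 or more UMIs of those markers were left out, Col4a1 stood at 1042 and 996 CPM and then 953 and 621 CPM in mural-like cells and at 2125 and 1514 CPM and then 1230 and 1472 CPM in fibroblast-like cells. All 10 members kept their highest class in both groups after that removal. Endothelial-like cells were not filtered, and taking out their RNA would not lower a class that stands above them. The kept order is therefore no test of such RNA. In the deligated libraries the removal left 82 of 317 and 89 of 440 mural-like cells. Of fibroblast-like cells it left 115 of 360 and 212 of 723.

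Counted over whole libraries, which follows both the level in a cell and the number of cells recovered, endothelial-like and fibroblast-like cells together held most molecules of every member. Endothelial-like cells, 39.9% and 43.3% of cells in the deligated and 32.2% and 33.3% in the homeostatic libraries, held 69.4% to 84.2% of Col4a1 UMIs and 63.9% to 79.7% of Hspg2 UMIs. Fibroblast-like cells were 8.26% and 9.24% of cells in the deligated and 2.70% and 2.60% in the homeostatic libraries. They held 91.5% to 95.3% of Lama2 UMIs in every library, 62.0% and 63.8% of Nid1 UMIs in the deligated libraries and 40.6% in each homeostatic library. Mural-like cells reached their largest share with Lamb2, at 22.5% and 19.8% in deligated and 9.03% and 10.1% in homeostatic libraries. Schwann-like cells, under 1% of cells, held at most 3.55% of the UMIs of any member, in this case Nid2. The recovery of each class after dissociation and bead depletion enters these shares, and its part was not tested.

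**Figure D2:**
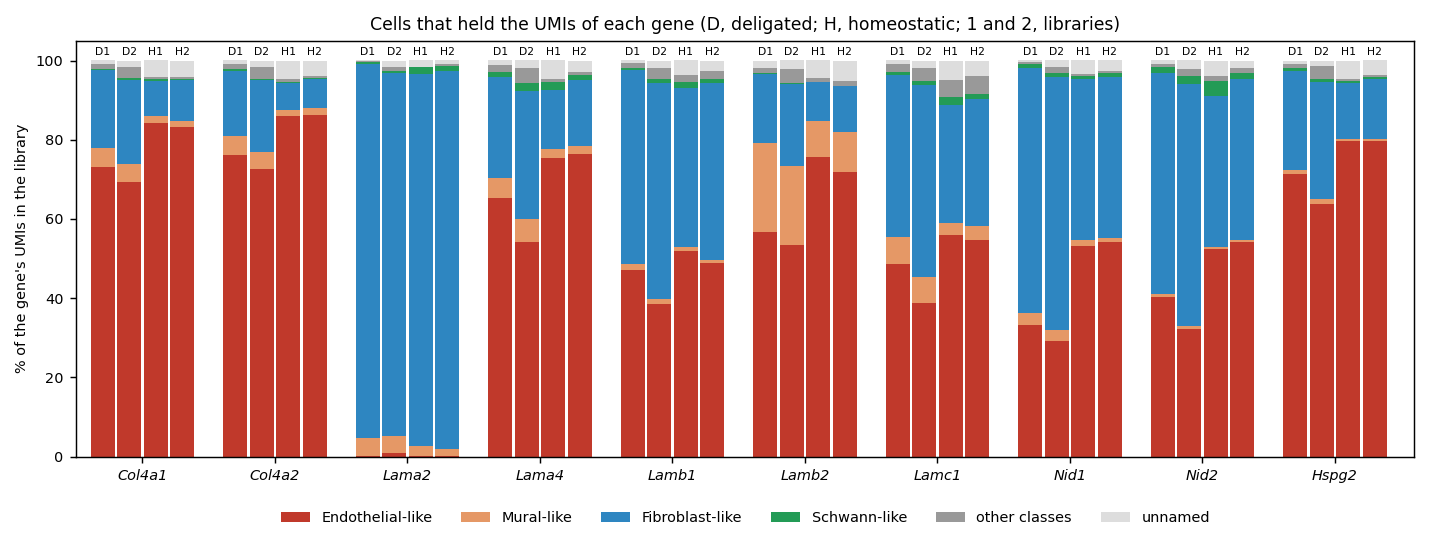
Share of each gene's UMIs, in percent of all its UMIs in a library, held by each class; the 4 bars of a gene are the deligated (D1, D2) and homeostatic (H1, H2) libraries. Fibroblast-like cells hold 91.5% to 95.3% of Lama2 UMIs, and mural-like cells hold their largest share with Lamb2.

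Within the classes, named subtypes carried the members unequally. The subtypes were drawn from the same cells and are described without a test. Pericyte-like cells held 2022 and 1737 CPM of Col4a1 in the deligated and 1793 and 1554 CPM in the homeostatic libraries, and smooth muscle-like cells 521 and 352 CPM and then 431 and 403 CPM. Col4a2 stood at 1185 and 1095 CPM and then 825 and 1048 CPM in pericyte-like cells, above fibroblast-like cells as a class in all 4 libraries, and at 332 and 196 CPM and then 181 and 305 CPM in smooth muscle-like cells. Lama2 was likewise higher in pericyte-like cells, at 183 and 186 CPM and then 359 and 260 CPM, than in smooth muscle-like cells, at 7.36 and 20.2 CPM and then 84.3 and 100 CPM. Nid1 stood at 202 to 287 CPM in pericyte-like and 20.9 to 46.0 CPM in smooth muscle-like cells. Lamb1, low in mural-like cells as a class, stood at 83.5 to 154 CPM in pericyte-like cells and at 2.45 to 12.5 CPM in smooth muscle-like cells.

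Lamb2 ran the other way: smooth muscle-like cells held 366 and 376 CPM (deligated) and 347 and 376 CPM (homeostatic), pericyte-like cells 191 and 222 CPM and then 190 and 108 CPM. Among endothelial subtypes, arterial-like cells held 165 and 171 CPM of Lamb2 and then 150 and 142 CPM, and venous-like cells 95.7 and 110 CPM and then 121 and 145 CPM. Arterial-like cells were thus above venous-like cells in the deligated libraries, and in the homeostatic libraries the subtypes overlapped. For Col4a1, arterial-like cells (1673 and 1247, then 1188 and 1064 CPM) and venous-like cells (1275 and 1083, then 524 and 711 CPM) lay below the interferon-responding cells (2642 and 2147, then 1735 and 1426 CPM). Capillary-like cells were named in homeostatic libraries only, at 1590 and 1586 CPM of Col4a1 and 518 and 521 CPM of Hspg2. Arterial-like cells of the same libraries held 331 and 293 CPM of Hspg2, and venous-like cells 253 and 268 CPM.

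Parenchymal-like fibroblasts held 2657 and 2840 CPM of Lama2 in the homeostatic and 759 and 656 CPM in the deligated libraries. Adventitial-like fibroblasts held 839 CPM in the single homeostatic library with at least 20 such cells (22 cells) and 617 and 572 CPM in the deligated libraries. Lama2 was thus spread over both fibroblast subtypes in the deligated group, while in the homeostatic library with both it was lower in adventitial-like cells. In that same library adventitial-like cells held 1653 CPM of Nid1, against 835 CPM in parenchymal-like cells, and 44.7 CPM of Nid2 against 221 CPM. Subtypes were named within each group, and a name can cover unlike cells. The larger homeostatic parenchymal-like subcluster (168 cells) was led by Spp1, Adra2c and Mfap4, and the deligated one by Mucl2, Scgb1b27 and Igfbp3. Spp1 and Mfap4 were among the leading genes of a deligated subcluster of 384 cells without a name. Adventitial-like subclusters were led by Opcml, Creb5 and Dpp4 in homeostatic and by Slc4a4, Kera and Sfrp2 in deligated libraries.

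**Figure D3:**
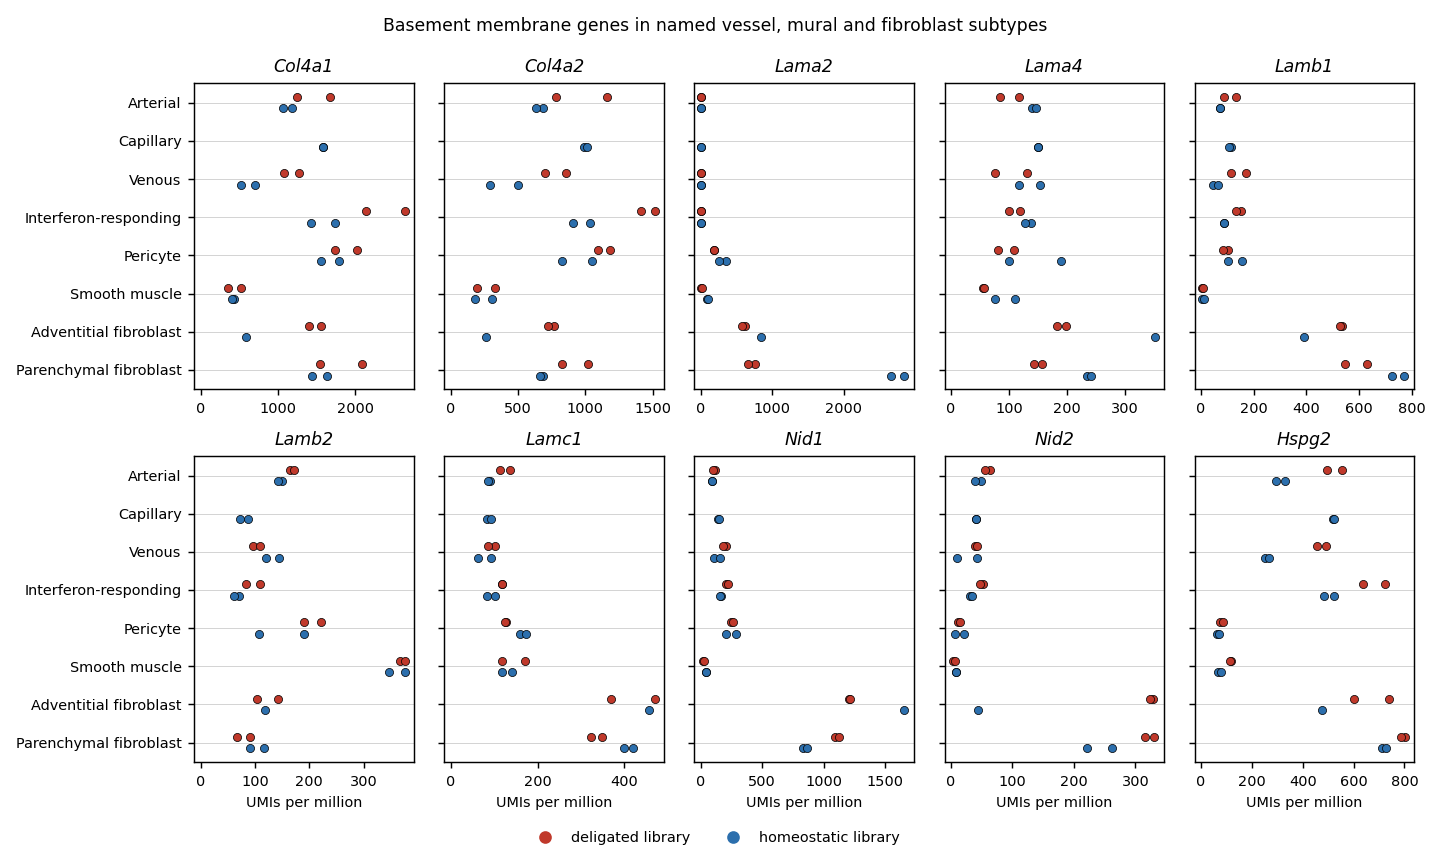
Levels of the 10 genes in named subtypes, in CPM of the subtype, each panel on its own axis; each point is a library with at least 20 cells of that subtype, red deligated and blue homeostatic. Pericyte-like cells lie above smooth muscle-like cells for Col4a1, Lama2, Lamb1 and Nid1 and below them for Lamb2.

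Between the groups, endothelial-like cells of the deligated glands held more of 7 of the 10 members: both collagen chains, Lamb1, Lamc1, both nidogens and Hspg2. In that class 35.5% of the 13184 genes tested differed between groups in either direction with 13.1% higher and 22.4% lower in the deligated group. From the library levels given above, Col4a1 was 1.45-fold higher (log2 fold change 0.54 ± 0.15 SE, adjusted p = 0.0325) and Col4a2 1.51-fold higher (0.60 ± 0.13, adjusted p = 0.0147). Lamb1 showed the largest difference among them, 1.79-fold (0.84 ± 0.15, adjusted p = 0.00666), and Hspg2 was 1.40-fold higher (0.49 ± 0.09, adjusted p = 0.00696). Lamc1 (1.37-fold), Nid1 (1.29-fold) and Nid2 (1.36-fold) passed with adjusted p between 0.0155 and 0.0386, and Nid1 did not pass with cells thinned to 1000 UMIs. The libraries of the groups did not overlap for any of the 7. The make-up of the class varied between libraries: 116 of 1888 and 924 of 3124 cells were interferon-responding in deligated against 229 of 3539 and 207 of 3513 in homeostatic libraries. Capillary-like cells were named in homeostatic libraries only (1285 and 1355 cells), which reflects the naming rule. A deligated subcluster of 1193 cells matched capillary-like best, with Car4 and Rgcc among its leading genes, and had under 3 markers. Within arterial-like, venous-like and interferon-responding cells, Col4a1, Col4a2, Lamb1, Nid1 and Hspg2 were each higher in both deligated than in both homeostatic libraries. Lamc1 and Nid2 were so in arterial-like and interferon-responding cells only. In venous-like cells Lamc1 stood at 101 and 86.2 CPM (deligated) and 64.0 and 92.1 CPM (homeostatic), an overlap. Nid2 overlapped there too, at 39.1 and 42.5 CPM and then 9.84 and 42.1 CPM. The part of the make-up was not tested. Lama4 (log2 fold change -0.33, adjusted p = 0.209) and Lamb2 (0.21, adjusted p = 0.0813) did not pass, and Lama2 was at background. The median over the 10 members was 0.47, against 0.00 over all genes tested. In endothelial-like cells the 11 fibroblast markers summed to 41.8 and 125 CPM in deligated and 12.1 and 11.8 CPM in homeostatic libraries, and the 11 mural markers to 76.7 and 91.8 CPM and then 41.7 and 21.8 CPM, with 1 fibroblast marker (Dpt) at 0 in the first homeostatic library. Their part was not tested.

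With the intron-length trend removed, the same 7 members and Lama2 passed in endothelial-like cells, all higher in the deligated group, where 29% of all genes passed. Lama2 stood at no more than 2.86 CPM in this class, within the level of lymphocytes, so its call there rests on background counts. Col4a1 then stood at 0.98 (adjusted p = 0.0052) and Lamb1 at 1.00 (adjusted p = 0.00488) on the log2 scale. When the first or the second homeostatic library was left out, Lamb1 was the member that passed. Without the first deligated library all 10 passed, Lama4 as the lower one. A fit that leaves 1 library in a group assumes that this library varies like the other group.

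In fibroblast-like cells 2 members were higher and 2 lower in the deligated group, where 27.3% of the 11581 genes tested passed, 8.89% higher and 18.4% lower. Col4a2 rose by a log2 fold change of 0.69 ± 0.14 (SE, adjusted p = 0.00521) and Nid1 by 0.38 ± 0.11 (adjusted p = 0.0338). Lama2 was 3.01-fold lower (-1.59 ± 0.13, adjusted p = 2.28e-05) and Lama4 1.47-fold lower (-0.55 ± 0.13, adjusted p = 0.014), and the groups did not overlap for these 4 genes. Col4a1 stood at 0.46 (adjusted p = 0.0608) and passed with DESeq2 and with no filter on low counts, Hspg2 stood at 0.21 and Nid2 at 0.17, while Lamb1, Lamb2 and Lamc1 lay between -0.09 and 0.06. Thinned to 1000 UMIs a cell, 46.2% and 50.2% of deligated and 84.3% and 84.5% of homeostatic fibroblast-like cells held a Lama2 UMI (17 and 6 cells too shallow to thin), against at most 0.516% of lymphocytes in any library. Without thinning the shares were 96.3% to 96.9% and 98.3% to 98.6%, at median depths of 10167 and 6596.5 UMIs in fibroblast-like cells and 5663 and 6225 UMIs in NK-like cells.

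The direction of the Lama2 difference in fibroblast-like cells depended on the trend. Among the 122 genes of that class with more than 500 kb of intron, the median log2 fold change was -2.50 and 95.1% passed the test as lower in the deligated group. Lama2, with 623.4 kb, fell by less than this median. With the trend removed Lama2 stood at 0.60 (adjusted p = 0.00979), now higher in the deligated group, and Lama4 at 0.23 (adjusted p = 0.281). Col4a1 (1.09, adjusted p = 0.00185), Col4a2 (1.46, adjusted p = 0.000204), Lamc1 (0.53, adjusted p = 0.0202), Nid1 (0.75), Nid2 (0.46) and Hspg2 (0.72) also passed, each higher in the deligated group, at a share of 17.4% of all genes. Thus 7 members passed in place of 4. When the first or the second homeostatic library was left out, Lama2 was the member that passed with the trend left in. Which of the values reflects the RNA in the cells cannot be told apart from these libraries.

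**Figure D4:**
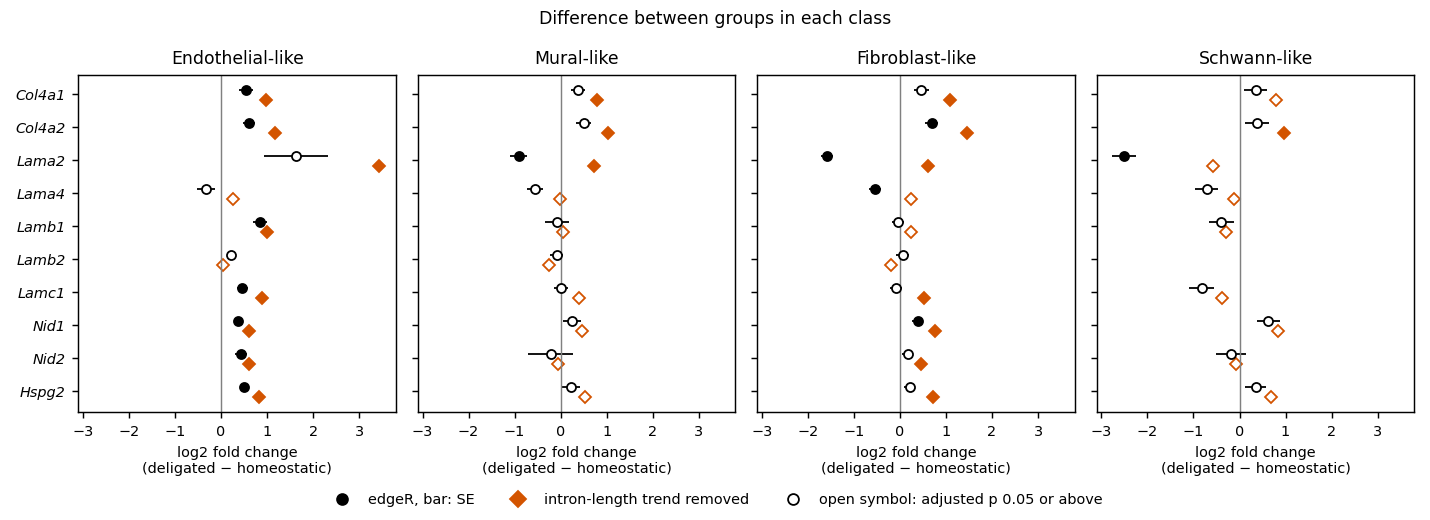
Log2 fold change, deligated minus homeostatic, of each gene in each class; black circles with SE bars are the edgeR fit and orange diamonds the same fit with the intron-length trend removed, filled where the adjusted p was under 0.05. In fibroblast-like and mural-like cells Lama2 moves from below to above 0, while the collagen chains stay above 0 in all 4 classes.

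**Figure D5:**
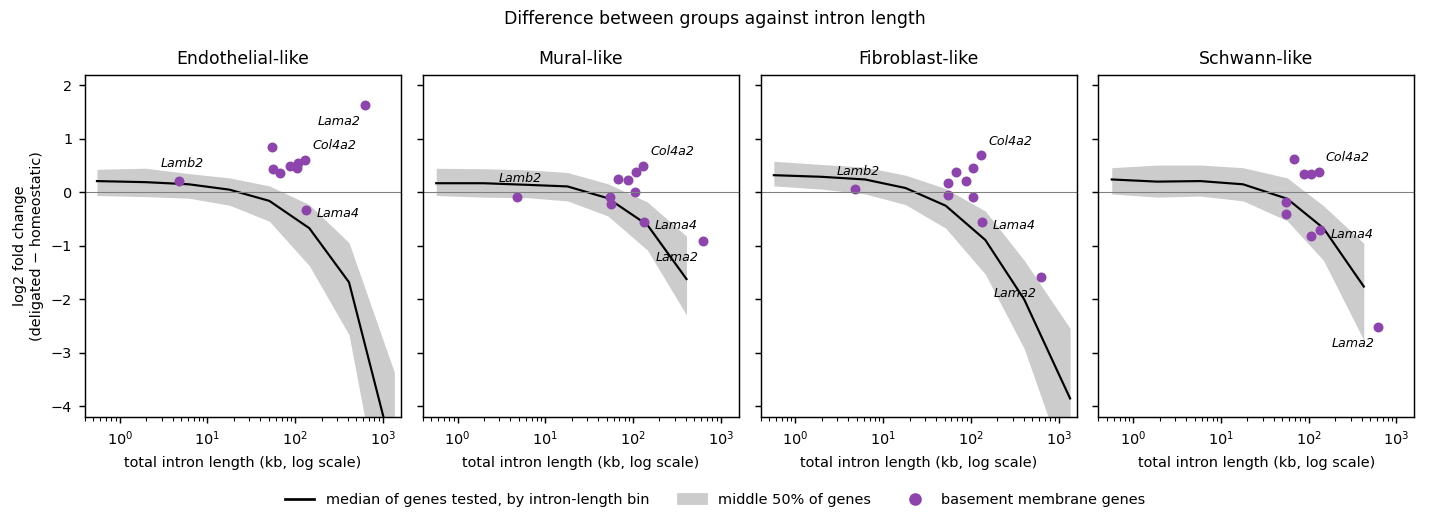
Log2 fold change between groups against total intron length (log axis) in each class; the line is the median of all genes tested in bins of intron length, grey the range between quartiles and purple the members. The members other than Lamb2 have at least 54.5 kb of intron, where the median of all genes lies below 0.

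In mural-like cells 1 member differed, a share close to the 8.49% of the 9739 genes tested (1.48% higher, 7.01% lower). Lama2 was 1.88-fold lower in the deligated group (log2 fold change -0.91 ± 0.18 SE, adjusted p = 0.00692), and stood at 0.73 (adjusted p = 0.0396) with the trend removed, where Col4a1 (0.79, adjusted p = 0.0181) and Col4a2 (1.02, adjusted p = 0.00416) also passed and 4.31% of all genes did. With the trend left in, Col4a1 stood at 0.38 (adjusted p = 0.193), Col4a2 at 0.50 (adjusted p = 0.0854) and Lama4 at -0.55 (adjusted p = 0.0748), each with libraries that did not overlap. Lamb2, whose highest level was in this class, stood at -0.08 ± 0.14 SE (adjusted p = 0.81). The 11 fibroblast markers summed to 1074 and 979 CPM in deligated and 456 and 433 CPM in homeostatic mural-like cells, most of it from Col1a1, Col1a2 and Col3a1. Dcn stood at 20.0 and 71.1 CPM and then at 13.4 and 11.3 CPM, and Dpp4 was at 0 in each deligated library and 5 markers, Pdgfra among them, in each homeostatic library. The part of these markers was not tested. Leaving out either deligated library, or the first homeostatic library, or thinning the cells to 1000 UMIs, left Lama2 short of the threshold. So did leaving out cells with endothelial marker UMIs, after which Lama2 stood at 72.1 and 99.4 CPM in deligated and 172 and 76.2 CPM in homeostatic mural-like cells, an overlap, and Lama4 was the member that passed.

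In Schwann-like cells Lama2 was the member that passed of the 9 tested, against 10.9% of 2843 genes (1.83% higher, 9.07% lower). It was 5.68-fold lower in the deligated group (log2 fold change -2.51 ± 0.27 SE, adjusted p = 2.88e-05), on 74 and 65 UMIs in homeostatic and 17 and 26 UMIs in deligated libraries. With the trend removed the value was -0.58 (adjusted p = 0.311). Col4a2 then passed, at 0.96 (adjusted p = 0.0481), where 4.36% of all genes did. In the fit with the trend left in, Lamc1 (-0.82, adjusted p = 0.0727), Lama4 (-0.71, adjusted p = 0.0875) and Nid1 (0.62, adjusted p = 0.148) had libraries that did not overlap and did not pass. The 11 fibroblast markers summed to 4666 and 3107 CPM in deligated and 1366 and 1414 CPM in homeostatic Schwann-like cells, nearly all of it from Col1a1, Col1a2 and Col3a1. Dcn stood at 13.3 and 68.8 CPM and then at 0, Pdgfra was at 0 in all 4 libraries, and 5, 4, 7 and 8 of the 11 markers were at 0. The 9 T cell markers summed to 320 and 32.6 CPM in deligated and 7.3 and 0 CPM in homeostatic Schwann-like cells. The 9 NK cell markers summed to 200 and 127 CPM and then 7.3 and 0 CPM. The part of these markers was not tested. Under the stricter filter on cells Lama2 did not pass either.

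Whether a difference between groups was itself unlike between classes was tested in the fit over all classes; the classes come from the same 4 libraries. Lamb1 rose in endothelial-like cells (101 to 177 CPM as group means) and not in fibroblast-like cells (654 and 604 CPM), so that the fibroblast-like excess over endothelial-like cells was 2.61 on the log2 scale in homeostatic and 1.79 in deligated libraries (interaction -0.82 ± 0.14 SE, adjusted p = 0.00029). It passed as well with the trend removed (-0.76, adjusted p = 0.000771) and without cells carrying endothelial marker UMIs (-0.75, adjusted p = 0.0012). It did not pass under the stricter cell filter (adjusted p = 0.166) or without the second homeostatic library. For Lamc1 the interaction was -0.47 ± 0.14 SE (adjusted p = 0.043), and it did not pass with the trend removed (-0.35, adjusted p = 0.195) or without cells carrying endothelial marker UMIs (-0.50, adjusted p = 0.0818). Lama2 differed against endothelial-like cells in both fibroblast-like (-3.16 ± 0.46 SE, adjusted p = 2.86e-05) and mural-like cells (-2.58 ± 0.49, adjusted p = 0.00265), and both values rest on an endothelial-like level at background, so they do not show that the group effect differs between classes. Counting Lama2, 3 of 10 members passed for fibroblast-like against endothelial-like cells, where 5.62% of all genes did (2 of 10 with DESeq2, which did not call Lamc1), and Lama2 alone for mural-like against endothelial-like cells, where 1.15% did. None passed for fibroblast-like against mural-like cells with edgeR or DESeq2, with 1 member at an unadjusted p under 0.05 and 1.27% of all genes passing. Without the second homeostatic library Lama2 was the 1 member that passed for fibroblast-like against endothelial-like cells, and none did for mural-like against endothelial-like cells when either homeostatic library was left out.

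How the other components of the basement membrane moved depended on the intron-length trend. Of 33 such genes, 20 were tested in endothelial-like cells, where 7 rose and 5 fell (median log2 fold change 0.22, against 0.00 over all genes). In fibroblast-like cells 8 of 24 rose and 8 fell (median 0.36, against 0.00). In mural-like cells 1 of 19 rose and 1 fell (median 0.00 against 0.01), and in Schwann-like cells 3 of 10 rose and 7 did not pass (median 0.34 against -0.01). After removal of the trend, 10 components were higher and 1 lower in endothelial-like cells (median 0.42), and 13 were higher and 2 lower in fibroblast-like cells (median 0.67). In mural-like cells 1 was then higher (median 0.17) and in Schwann-like cells 2 were (median 0.53), with no component lower in either. The shares of all genes that passed, in either direction, were those given above for each class (35.5%, 8.49%, 27.3% and 10.9%, and 29%, 4.31%, 17.4% and 4.36% with the trend removed, for endothelial-like, mural-like, fibroblast-like and Schwann-like cells). Lama3, the alpha chain of epithelial laminins, fell in endothelial-like cells from 319 and 323 CPM to 109 and 97.0 CPM (log2 fold change -1.62 ± 0.11 SE, adjusted p = 0.000154), and stood at -0.59 (adjusted p = 0.00985) with the trend removed. In fibroblast-like cells Lama3 was counted 21 times in homeostatic and 11 times in deligated libraries and was lower in the latter (-2.43, adjusted p = 0.0114), as was Ntn1, a netrin (-1.65, adjusted p = 0.00652). Neither passed with the trend removed (adjusted p = 0.206 and 0.287). In fibroblast-like cells the 10 epithelial markers summed to 41.5 and 29.3 CPM in homeostatic and 5.23 and 7.04 CPM in deligated libraries. In endothelial-like cells they summed to 38.0 and 41.8 CPM and then 2.13 and 5.83 CPM. The part of epithelial RNA in the Lama3 values was not tested.

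Thbs4, a thrombospondin, was almost absent from homeostatic fibroblast-like cells, with 1 UMI, and stood at 70.4 and 24.2 CPM in the deligated libraries (494 UMIs, adjusted p = 0.000886, and 0.00148 with the trend removed). Smoc2 in endothelial-like cells (82 deligated and 6 homeostatic UMIs, adjusted p = 0.0188) and Lamb3 (14 and 36 UMIs, adjusted p = 0.0409) passed at no more than 3.85 CPM in any library; with the trend removed Smoc2 passed (adjusted p = 0.0138) and Lamb3 did not (adjusted p = 0.17). In mural-like cells Bgn, the small proteoglycan biglycan, rose from 216 and 175 CPM to 340 and 363 CPM (0.84 ± 0.14 SE, adjusted p = 0.00357) and Ntn4, another netrin, fell from 307 and 302 CPM to 168 and 189 CPM (-0.78 ± 0.14, adjusted p = 0.00438). In Schwann-like cells Fbln2, a fibulin, rose from 43.8 and 17.4 CPM to 260 and 206 CPM (2.75 ± 0.45, adjusted p = 0.00075). Col18a1 (1.04, adjusted p = 0.0316) and Sparc (0.91, adjusted p = 0.0402) rose there too. With the trend removed, Bgn, Fbln2 and Col18a1 still passed (adjusted p = 0.0242, 0.00223 and 0.00828), and Ntn4 and Sparc did not (adjusted p = 0.167 and 0.118). Fbln2 and Thbs4 passed under every alternative in which they were tested, which leaves out cells thinned to 1000 UMIs (highest adjusted p = 0.0371 and 0.0306), while Bgn, Col18a1 and Smoc2 each lost their call under at least 1 (highest adjusted p = 0.313, 0.287 and 0.0786), Bgn and Col18a1 also with either deligated library left out.

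Of 23 genes for the folding, modification and secretion of collagen IV and laminin, 22 were tested in each class except the Schwann-like cells. In endothelial-like cells 8 rose and 6 fell (median 0.17), in fibroblast-like cells 6 rose and 4 fell (median 0.22), and in mural-like cells 1 rose and 3 fell (median 0.08), while in Schwann-like cells the 8 tested genes had a median of -0.05 and none passed. Of all genes tested, 35.5% passed in endothelial-like, 27.3% in fibroblast-like, 8.49% in mural-like and 10.9% in Schwann-like cells, with medians of -0.01 to 0.01. Once the trend was removed, 5 were higher and 2 lower in endothelial-like cells (median 0.20) and in fibroblast-like cells (median 0.22), 1 was higher and 1 lower in mural-like cells (median 0.10), and again none passed in Schwann-like cells (median -0.04), at shares of 29%, 17.4%, 4.31% and 4.36% of all genes. Fkbp10, a collagen chaperone of the endoplasmic reticulum, rose in endothelial-like cells (16.7 and 12.3 CPM against 5.97 and 4.72 CPM, 1.46 ± 0.23 SE, adjusted p = 0.00431) and in fibroblast-like cells (84.4 and 76.1 CPM against 47.8 and 46.9 CPM, 0.82 ± 0.15, adjusted p = 0.00353), and passed in both with the trend removed (adjusted p = 0.00864 and 0.0276). P3h3, a prolyl 3-hydroxylase, rose in endothelial-like cells from 2.51 and 3.05 CPM to 5.92 and 5.83 CPM (1.10, adjusted p = 0.00931, and 1.00 with adjusted p = 0.0168 with the trend removed). Colgalt2, a collagen galactosyltransferase, fell in endothelial-like cells (-1.12, adjusted p = 0.000165) and fibroblast-like cells (-1.72, adjusted p = 0.000237), in both also with the trend removed (-0.68 and -1.09). P3h2, the prolyl 3-hydroxylase of type IV collagen, fell in mural-like cells from 185 and 183 CPM to 47.1 and 33.5 CPM (-2.20 ± 0.21 SE, adjusted p = 6.56e-05) and in fibroblast-like cells from 40.0 and 36.2 CPM to 10.1 and 13.8 CPM (-1.60 ± 0.20, adjusted p = 0.000355). Both P3h2 values kept their sign and passed with the trend removed (-1.61 and -0.76). Loxl2, a lysyl oxidase, rose in mural-like cells (185 against 14 UMIs, 1.78, adjusted p = 0.011), and Sec24d, a coat protein of secretory vesicles, fell (-1.11, adjusted p = 0.0284). Loxl2 also passed with the trend removed (adjusted p = 0.00863), and Sec24d did not (-0.77, adjusted p = 0.164). Over all alternatives, the calls of Colgalt2 in both classes, of Fkbp10 in endothelial-like cells and of P3h2 in fibroblast-like cells held (highest adjusted p between 0.0022 and 0.0311). Those of P3h2 and Loxl2 in mural-like cells (highest adjusted p = 0.237 and 0.268, both lost with either deligated library left out), Fkbp10 in fibroblast-like cells (0.122, lost with either homeostatic library left out) and P3h3 in endothelial-like cells (0.105, lost without the first homeostatic library) did not.

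Of 24 receptor genes 23 were listed, Gpr126 being an older name of Adgrg6. In endothelial-like cells 3 of 21 rose and 5 fell (median 0.06), in fibroblast-like cells 3 of 18 rose and 5 fell (median -0.24), in mural-like cells 2 of 16 fell and 14 did not pass (median 0.01), and in Schwann-like cells 4 of 16 fell and 12 did not pass (median -0.27). Beside the shares of all genes that passed (35.5%, 27.3%, 8.49% and 10.9% in the same order), the endothelial-like and mural-like counts lie near the background. The balance turned with the trend removed: 9 were higher and 1 lower in endothelial-like cells (median 0.33), 5 higher and 1 lower in fibroblast-like cells (median 0.19), and 2 higher and none lower in mural-like cells (median 0.20) and in Schwann-like cells (median 0.10), where 29%, 17.4%, 4.31% and 4.36% of all genes passed in the 4 classes. The receptor genes with the largest changes included Dmd, Utrn and Sgcd, which have 2233.5, 470.1 and 1084.5 kb of intron. Dmd (dystrophin, which links laminin receptors to the cytoskeleton) was lower in the deligated group in all 4 classes, by -0.81 (adjusted p = 0.0116) in endothelial-like, -2.08 (adjusted p = 4.91e-06) in mural-like, -1.09 (adjusted p = 0.00248) in fibroblast-like and -1.29 (adjusted p = 0.00304) in Schwann-like cells. With the trend removed Dmd turned positive in all 4 (2.11, 0.52, 2.31 and 1.92), and in mural-like cells it did not pass (adjusted p = 0.0611). Utrn (utrophin) did the same in mural-like (-0.51 to 0.93), fibroblast-like (-1.31 to 0.61) and Schwann-like cells (-1.13 to 0.53, where it did not pass, adjusted p = 0.33). Sgcd, a sarcoglycan, fell in fibroblast-like cells from 150 and 145 CPM to 12.4 and 15.9 CPM (-3.31 ± 0.16 SE, adjusted p = 1.21e-06), and stood at -0.60 (adjusted p = 0.0292) with the trend removed. In Schwann-like cells Sgcd went from -2.32 (adjusted p = 3.10e-05) to 0.16 (adjusted p = 0.818). In endothelial-like cells the integrin chains Itgav (-0.78, adjusted p = 0.00313) and Itgb5 (-0.62, adjusted p = 0.0134) were lower, and with the trend removed Itgav passed (adjusted p = 0.0173) and Itgb5 did not (adjusted p = 0.499).

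Over the 34 sums of a class in a library with at least 20 cells, the genes most like each member were ranked by Pearson's r of log2(CPM + 1), a description over sums that share libraries. Col4a1 and Col4a2 were each other's closest gene (r = 0.993), with Sparc next for both (0.975 and 0.971). Next came Prss23 for Col4a1 (0.968) and Tmem47 for Col4a2 (0.966). Lama2 was closest to Adamts12 (0.962), Zfhx4 (0.962) and Pdzrn3 (0.957), and its r with the other members ran from 0.584 to 0.791. Lama4 was closest to Plat (0.954), Nid1 (0.944) and Syde1 (0.942), and Lamb1 to Aebp1 (0.953), Fkbp7 (0.946) and Nid1 (0.937). Lamb2 was closest to Pls3 (0.965), Cavin1 (0.957) and Amotl1 (0.955), and Lamc1 to Dsel (0.952), Slc12a4 (0.946) and Fstl1 (0.937). The closest genes were Fkbp7 (0.958), Plat (0.956) and Nectin3 (0.951) for Nid1, and Fbln5 (0.951), Layn (0.937) and Plat (0.930) for Nid2. Hspg2 was closest to Ltbp4 (0.957), Pxdn (0.951) and Vat1 (0.950).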

How the data were processed

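Single-cell RNA counts of 4 libraries were analysed. Per the file headers, the authors' deposited matrices hold counts (UMIs per gene and barcode) made by Cell Ranger 6.0.1 (deligated) and 7.0.0 (homeostatic). No listed barcode had under 500 UMIs. Per the submitters' processing notes, Cell Ranger 6.0.1, Seurat and mm10 were used. Library totals were 35662241 to 53898793 UMIs. Of 31053 gene identifiers, 99.86% matched GENCODE M21. Kit, strand and intron settings are not given in the sources used here.

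Cells with at least 300 genes and at most 10% mitochondrial UMIs were kept. Doublets were removed by Scrublet score at 0.8% per 1000 cells (2990 of 36685 cells). Groups were clustered separately with scanpy 1.11.5 (3000 variable genes, 30 principal components, 20 neighbours, Leiden resolution 1.0), leaving out the members and the listed genes. A cluster was named from at least 3 markers at 2.0-fold or more, and a cell kept its class only if no other class had a larger share of its markers detected. Separate clustering, the naming rule, this cell rule and Scrublet, which replaced a caller that left too few Schwann-like cells, were chosen after clusters were seen. Subtypes came from clustering each class again at resolution 0.5, named at 1.3-fold or more. UMIs were summed per class and library with at least 20 cells.

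Groups were compared per class with edgeR 4.0.16 (quasi-likelihood, TMM, low counts filtered, R 4.3.3), with Benjamini-Hochberg adjustment over all genes and a threshold of 0.05. Classes and interactions were tested in 1 fit over 4 classes and 4 libraries, with library as a block within group. The intron-length trend was a lowess curve (span 0.3) of log2 fold change on log10(intron bases + 1000), used as an offset. Both fits were checked on simulated counts. Alternatives were DESeq2 1.42.0, its size factors, no filter, a replicate block, the trend removed, thinning, a stricter cell filter, no doublet removal, resolution 2.0, the members kept for clustering and each library left out. All members are named; of 3 lists (components, assembly and processing, receptors), at most 3 genes per class passing with the largest change and no overlap; and the 3 genes most like each member. Members and lists were chosen with earlier results of these data known. Same-numbered libraries did not deviate together (correlation of deviations -0.14, 0.01 and -0.01 in endothelial-like, mural-like and fibroblast-like cells), so the numbers were not taken as pairs.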

Additional observations from a re-analysis of the deposited data

Results flagged for a closer look

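The interaction of class and group, in the fit over all classes, passed the threshold for 3 of the 10 genes. For Lama2 the difference between groups in mural-like cells, set against that in endothelial-like cells, was -2.58 on the log2 scale, and the same for fibroblast-like cells was -3.16; endothelial-like cells held 0.475 to 2.86 CPM of this gene, within the level of lymphocytes, so neither value shows that the group effect differs between classes; for fibroblast-like against mural-like cells it did not pass (adjusted p = 0.289). For Lamb1 the value for fibroblast-like against endothelial-like cells was -0.82, with endothelial-like cells higher in the deligated group and fibroblast-like cells overlapping between groups, and it did not pass under the stricter cell filter (adjusted p = 0.166) or without the second homeostatic library. For Lamc1 it was -0.47, and it did not pass with the intron-length trend removed (adjusted p = 0.195), without cells carrying endothelial marker UMIs (adjusted p = 0.0818) or with DESeq2. With 2 libraries in each group no library could be called an outlier.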

How the results depend on the processing

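Of 1535 values of single genes under the alternatives, 1367 stayed on their side of the threshold, 124 lost it, 32 gained it and 12 changed sign with a call on either side. The 1367 include 77 sign changes between values past the threshold in neither setting. The 12 all came from removing the intron-length trend: Lama2 stood at 0.73 in mural-like and 0.60 in fibroblast-like cells, Lama4 at 0.23 and Lamc1 at 0.53 in fibroblast-like cells, Dmd at 2.11, 0.52, 2.31 and 1.92 in endothelial-like, mural-like, fibroblast-like and Schwann-like cells, Utrn at 0.93, 0.61 and 0.53 in the last 3 of these, and Sgcd at 0.16 in Schwann-like cells. With the trend removed 3 members passed in mural-like and 7 in fibroblast-like cells. In mural-like cells 2 passed with no filter on low counts, 2 under the stricter cell filter and 0 with cells thinned to 1000 UMIs. In Schwann-like cells 0 passed under the stricter cell filter and 2 without doublet removal. The interaction of mural-like against endothelial-like cells had 0 members with thinned cells and 0 under the stricter cell filter, that of fibroblast-like against endothelial-like cells 1 under the stricter cell filter, and that of fibroblast-like against mural-like cells 1 with no filter on low counts. The cause of these changes was not tested.

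Leaving out each library in turn gave 1 to 10 members between groups in endothelial-like, 0 to 1 in mural-like, 1 to 6 in fibroblast-like and 1 in Schwann-like cells. The number whose highest class differed from the next ran from 7 to 9 (deligated) and 5 to 9 (homeostatic), and the interactions from 0 to 2 (mural-like against endothelial-like), 1 to 4 (fibroblast-like against endothelial-like) and 0 to 1 (fibroblast-like against mural-like). A fit with 1 library in a group assumes that it varies like the other group. The replicate block gave 7, 1, 3 and 1 members in the 4 classes, with Nid1 lost in fibroblast-like cells; the block with crossed numbers, tried because endothelial-like deviations had a correlation of -0.14, gave 9, 2, 5 and 2. That setting, leaving out cells with endothelial marker UMIs and leaving out the Schwann-like sums were chosen after seeing the data. Few Schwann-like cells and low counts of Lama2 in endothelial-like and Lamb2 in Schwann-like cells limit those values.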

Other observations

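Outside the 4 stromal classes, the highest Col4a1 levels among named classes were in erythroid-like cells of the deligated libraries (13 and 63 cells, median 13488 and 12110 UMIs), at 1371 and 1167 CPM (247 and 833 UMIs), with 394 and 430 CPM of Hspg2. The medians of all retained cells in these libraries were 6035 and 5211 UMIs. Whether the erythroid-like barcodes hold RNA of more than 1 cell was not tested, so they are not shown to be a source of Col4a1. A homeostatic cluster of 128 cells led by Pcp4, Acta2, Cnn1 and Tpm2, with epithelial markers, held 632 CPM of Col4a1 (261 UMIs), 223 CPM of Col4a2 and 102 CPM of Hspg2, and no Lama2 UMI. A deligated cluster of 21 cells led by Dcpp3 and Fxyd3 held 790 CPM of Col4a1 (184 UMIs) and 112 CPM of Hspg2. In the other homeostatic epithelial clusters Col4a1 lay between 4.51 and 141 CPM. The 17 lymphatic-like cells of the deligated libraries, led by Ccl21a and Mmrn1, held 836 CPM of Col4a1 (165 UMIs), 446 CPM of Lama4 (88 UMIs) and 172 CPM of Nid1 (34 UMIs).

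Of the deligated endothelial-like subclusters, 2 without a name had the highest Col4a1 levels: one of 429 cells led by Gm26917, Lars2 and Gm42418 (median 2465 UMIs per cell) held 3292 and 2661 CPM, and one of 375 cells led by Kit, Sez6l2 and Odc1 held 3125 and 2640 CPM. They held 336 and 272 CPM, and 235 and 286 CPM, of Lamb1, in the same order. A pericyte-like subcluster of 110 deligated cells led by Mucl2, Ccnd1 and Slc5a5 held 1052 and 987 CPM of Col4a1, and the other, of 236 cells led by Dapk2, Kcnj8 and Elmod1, held 2552 and 2144 CPM.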
